A study of Mus musculus with 8 samples.

Results

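Metabotropic glutamate receptors were examined in the hippocampus of male C57BL/6 mice that had been anesthetized repeatedly with ketamine before weaning. The members are the 6 receptor genes Grm2, Grm3, Grm4, Grm5, Grm7 and Grm8, chosen by symbol, and all 6 were found among the 20802 genes of the deposited table. Mice in the Anesthesia group (n = 4) were given ketamine (35 mg per kg, i.p.) once a day on 5 days from postnatal day (PND) 16, and mice in the Control group (n = 4) were injected with saline instead, although their sample titles call them untreated. Each library is bulk RNA from the hippocampus of 1 mouse, with an age of PND28 in the sample labels. The comparison between the groups asks whether mRNA levels of these receptors still differed after the anesthesia had ended.

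Metabotropic glutamate receptors are G protein-coupled receptors that tune synapses slowly, in contrast to the ion channels through which glutamate acts within milliseconds. Group I receptors, such as mGluR5, sit mostly on the postsynaptic side and signal through Gq and phospholipase C, which releases calcium from internal stores. Group II (mGluR2 and mGluR3) and group III (mGluR4, mGluR6, mGluR7 and mGluR8) signal through Gi/o, which inhibits adenylyl cyclase, and many of them lower transmitter release from presynaptic terminals. In the hippocampus, mGluR5 is known from pyramidal neurons, mGluR2 from the mossy fiber terminals of dentate granule neurons, mGluR3 from neurons and astrocytes, and mGluR7 from the active zones of many terminals.

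In these mice, Grm5 was the most abundant of the 6 genes and Grm4 the least. No member differed between the groups at an adjusted p under 0.05 (limma over all genes tested). The point estimates of Grm2, Grm4 and Grm8 were the largest, with Anesthesia means 1.46, 1.54 and 1.40 times the Control means. Their log2 differences fell from 0.53, 0.55 and 0.37 to 0.31, 0.33 and 0.17 without 1 mouse, Anesthesia replicate 3. Without Anesthesia replicate 2 they rose instead, to 0.66, 0.80 and 0.74. Grm5 and Grm7 had the narrowest intervals, which lay within 0.889 to 1.09-fold for Grm5 and 0.937 to 1.18-fold for Grm7.

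All values are normalized counts, that is, estimated read counts per gene that the authors divided by a size factor for each library. The 8 libraries summed to between 18702634 and 19231119 normalized counts. The step between low values, taken to approximate the worth of 1 read, was 0.849 to 1.21 normalized counts. It was searched for only among values around 1, so it cannot show that a normalized count was close to 1 read. Summed over the hippocampal markers examined, levels were 6317 to 13395 normalized counts for 7 dentate granule neuron genes, 8292 to 10025 for 7 CA1 genes and 4451 to 7517 for 6 CA3 genes, and none of these genes was at 0 in a library. Anesthesia replicates 2 and 3 lay at opposite ends of several marker lists. A list of 12 neocortex and subiculum markers was written after Anesthesia replicate 3 had been noticed, and 9 of them were highest in it. Nts was instead lowest there, at 63.9 normalized counts, and Fezf2 (214) and Fn1 (1591) lay within the range of the other mice. The 12 markers summed to 9304 normalized counts there, against 4137 to 6659 in the other Anesthesia mice and 4110 to 6277 in the Control mice. The same mouse had the lowest level of 4 of the 7 dentate markers and of 4 of the 6 CA3 markers. Anesthesia replicate 2 had the highest dentate and CA3 sums of the 8 mice and the lowest mean log2 level of the neocortex and subiculum list. By sum, Control replicate 3 was lowest on that list (4110, against 4137 in Anesthesia replicate 2). In the 32 groups of 4 values of 16 receptor and pathway genes, Dixon's test at the 95% level set no mouse apart, where 1.6 groups would be set apart by chance. It was not run on the marker lists, and with 4 values a group it can miss a mouse that lies apart. Choroid plexus markers summed to 57581, 1032, 518 and 3514 normalized counts in Anesthesia replicates 1 to 4 and to 669, 26737, 67092 and 66797 in Control replicates 1 to 4. They were thus abundant in 1 Anesthesia mouse and 3 Control mice, and all 11 had a lower estimate in the Anesthesia group (median log2 difference -1.55), with 0 of 11 at an unadjusted p under 0.05 in limma. None of the 12 neocortex and subiculum markers was at 0 in any library. In bulk tissue, fewer cells of a type and less RNA per cell cannot be told apart.

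The promoters of Grm2 and Grm3 are shown because these genes encode the whole of group II. Each sequence is the 250 bases before the RefSeq start on the minus strand of GRCm38.p6, written 5′ to 3′, with GC boxes (GGGCGG on either strand, the motif bound by Sp1) in capitals.
Grm2, chr9:106656110-106656359: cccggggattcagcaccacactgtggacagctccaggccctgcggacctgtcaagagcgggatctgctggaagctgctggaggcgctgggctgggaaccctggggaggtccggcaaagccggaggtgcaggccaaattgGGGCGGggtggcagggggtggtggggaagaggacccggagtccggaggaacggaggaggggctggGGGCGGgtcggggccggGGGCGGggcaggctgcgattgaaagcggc
Grm3, chr5:9725353-9725602: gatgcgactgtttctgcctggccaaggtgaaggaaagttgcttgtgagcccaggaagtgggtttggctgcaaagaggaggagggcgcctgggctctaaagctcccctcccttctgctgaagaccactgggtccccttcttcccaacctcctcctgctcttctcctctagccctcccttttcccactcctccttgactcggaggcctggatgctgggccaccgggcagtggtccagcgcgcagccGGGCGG
The Grm2 window held 3 GC boxes and 16 CpG dinucleotides, and 71.2% of its bases were G or C. The Grm3 window held 1 GC box, at its 3′ end next to the start site, with 8 CpG dinucleotides and 62.4% G or C. Across 32851 RefSeq promoter windows of this length, 32.7% held a GC box and the median G or C content was 52.4%. Neither window held a TATA box (TATAAA, in 12.4% of all windows) or the core of a cAMP response element (TGACG, in 17.8%). These matches describe the letters only. Windows were also found for Grm7 and Grm8, and none for Grm4 or Grm5.

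The abundance of the receptors relative to each other was compared per kb of transcript, because longer transcripts collect more reads. Dividing by the median length of each gene's protein-coding transcripts, Grm5 averaged 2223 normalized counts per kb over the 8 mice, with a range of 1937 to 2333. Grm7 followed with 1227 per kb (range 1099 to 1391). Grm3 averaged 454 per kb, with a range of 354 to 653. The ranges of these 3 genes did not overlap each other or those of the remaining genes. Grm2 averaged 175 per kb (range 102 to 312) and Grm8 132 per kb (range 65.9 to 216), so that these neighbors overlapped. Grm4 was last with 51.0 per kb, and its range of 31.6 to 91.6 overlapped that of Grm8 but not that of Grm2.

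Within each mouse the order was nearly fixed. Grm5, Grm7, Grm3 and Grm4 kept ranks 1, 2, 3 and 6 in 8 of 8 mice, and Grm2 was above Grm8 in all mice but Control replicate 4. Grm5 made up 54.1% ± 0.92 of the summed per-kb level of the 6 genes in the Control group and 50.6% ± 6.01 in the Anesthesia group (SD, n = 4 each), with its lowest share, 42.1%, in Anesthesia replicate 3. Grm7 contributed 28.9% ± 1.83 and 28.7% ± 1.06, respectively. The order depends partly on the length that is used. Per kb of the longest transcript, Grm5 averaged 1243 and Grm4 37.8, still first and last, but Grm7 (518) came closer to Grm3 (454) and fell below it in Anesthesia replicate 3. On that scale, the mean of Grm8 (96.8) was above that of Grm2 (80.9).

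**Figure D1:**
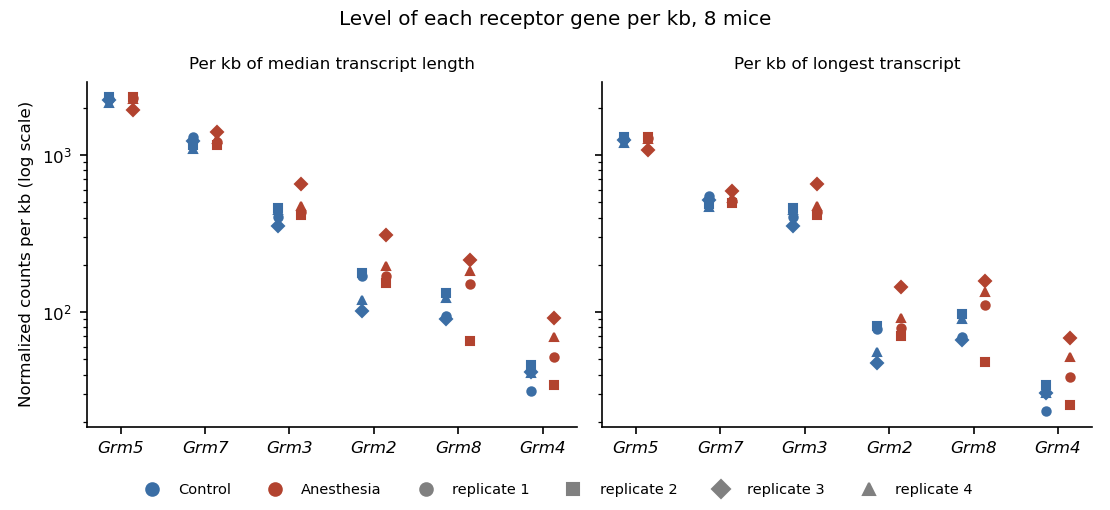
Level of each receptor gene in each of the 8 mice, in normalized counts per kb on a log axis, with the median protein-coding transcript length (left) or the longest transcript (right) as divisor. Points are mice, blue for Control and red for Anesthesia, with a symbol for each replicate number. Grm5 is at the top and Grm4 at the bottom in every mouse, while Grm2 and Grm8 overlap.

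Grm5 encodes mGluR5, the group I receptor that couples to Gq and to the Homer scaffold at hippocampal synapses (ENSMUSG00000049583, GRCm38 chr7:87584168-88134907, plus strand). Its level was 10348, 10500, 8718 and 10152 normalized counts in Anesthesia replicates 1 to 4, and 10162, 10469, 10072 and 9616 in Control replicates 1 to 4. Only Anesthesia replicate 3 was below all Control mice, and the groups overlapped. The means were 9930 ± 820 and 10080 ± 353 (SD, n = 4 each). On the log2(value + 1) scale, the difference was -0.025 (SE 0.065, 95% interval -0.17 to 0.12), with an adjusted p of 0.930 from limma. Without Anesthesia replicate 3 the difference turned to 0.036.

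Grm2 encodes mGluR2, a presynaptic group II autoreceptor (ENSMUSG00000023192, chr9:106643095-106656082, minus strand). It was measured at 371, 332, 679 and 429 normalized counts in the Anesthesia mice and at 370.0, 386, 222 and 261 in the Control mice, in replicate order. The Anesthesia values included the highest of the 8 mice, but replicates 1 and 2 lay within the Control range. The Anesthesia mean was 453 ± 156 and the Control mean 309.6 ± 80.7. The log2 difference was 0.53 (SE 0.24, 95% interval 0.0055 to 1.05), and limma gave an unadjusted p of 0.048 and an adjusted p of 0.622. Leaving out Anesthesia replicate 3 lowered the difference to 0.31, with an unadjusted p of 0.137 from limma. The unadjusted p was also above 0.05 without Anesthesia replicate 4 (0.0768), Control replicate 3 (0.140) or Control replicate 4 (0.112). It stayed under 0.05 in limma without Anesthesia replicate 1 (0.0449) or 2 (0.0216), or Control replicate 1 (0.0350) or 2 (0.0281). In those fits the log2 difference was 0.60 to 0.66.

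Grm3 encodes mGluR3, the other group II receptor, which astrocytes also express (ENSMUSG00000003974, chr5:9485541-9725170, minus strand). The 4 Anesthesia mice had 1317, 1268, 1992 and 1434 normalized counts, against 1232, 1393, 1078 and 1362 in the 4 Control mice. Anesthesia replicate 3 was far above the others, and the remaining 7 mice intermingled. With means of 1503 ± 334 and 1266 ± 143, the log2 difference was 0.23 (SE 0.14, 95% interval -0.076 to 0.54), and the adjusted p in limma was 0.677. The log2 difference was 0.087 without Anesthesia replicate 3 and 0.30 without Anesthesia replicate 2. Astrocyte markers summed to 25066 to 26965 normalized counts in the Anesthesia mice and to 26110 to 27436 in the Control mice, and 1 of the 8 was higher in the Anesthesia group by its point estimate.

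Among the group III genes, Grm4 encodes mGluR4, a presynaptic receptor best known from cerebellar parallel fibers (ENSMUSG00000063239, chr17:27422387-27521403, minus strand). Values in the Anesthesia mice were 178, 118, 313 and 238 normalized counts, and those in the Control mice were 108, 158, 142 and 141. Of the Anesthesia mice, 3 exceeded the highest Control mouse, while replicate 2 fell within the Control range. The Anesthesia mean was 212 ± 83.5 and the Control mean 137 ± 20.9. The log2 difference of 0.55 (SE 0.26, 95% interval -0.027 to 1.12) had an unadjusted p of 0.0596 and an adjusted p of 0.636 in limma. It was 0.33 without Anesthesia replicate 3 and 0.80 without Anesthesia replicate 2, where the unadjusted p in limma was 0.0026 and the adjusted p 0.50.

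Grm7 encodes mGluR7, a receptor of low glutamate affinity at presynaptic active zones (ENSMUSG00000056755, chr6:110645581-111567230, plus strand). It was at 2151, 2067, 2466 and 2226 normalized counts in the Anesthesia mice and at 2311, 2051, 2175 and 1947 in the Control mice. The values were interleaved, with the highest again in Anesthesia replicate 3. The means of 2228 ± 172 and 2121 ± 157 gave a log2 difference of 0.071 (SE 0.074, 95% interval -0.093 to 0.23), and limma returned an adjusted p of 0.799. The difference was 0.021 without Anesthesia replicate 3 and 0.030 without Control replicate 4. It was larger, at 0.11, without Anesthesia replicate 2 or Control replicate 1.

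Grm8 encodes mGluR8, a presynaptic receptor with higher glutamate affinity than mGluR7 (ENSMUSG00000024211, chr6:27275119-28135178, minus strand). The Anesthesia mice had 426, 186, 612 and 516 normalized counts, and the Control mice had 267, 373, 256 and 349. The Anesthesia group therefore held the 3 highest values and also the lowest, which was in replicate 2. The means were 435 ± 182 and 312 ± 58.5. With a log2 difference of 0.37 (SE 0.31, 95% interval -0.32 to 1.06), the adjusted p in limma was 0.754. No other member depended as much on which mouse was left out, with 0.17 without Anesthesia replicate 3, 0.25 without Anesthesia replicate 4 and 0.74 without Anesthesia replicate 2, where limma gave an unadjusted p of 0.0013 and an adjusted p of 0.50.

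**Figure D2:**
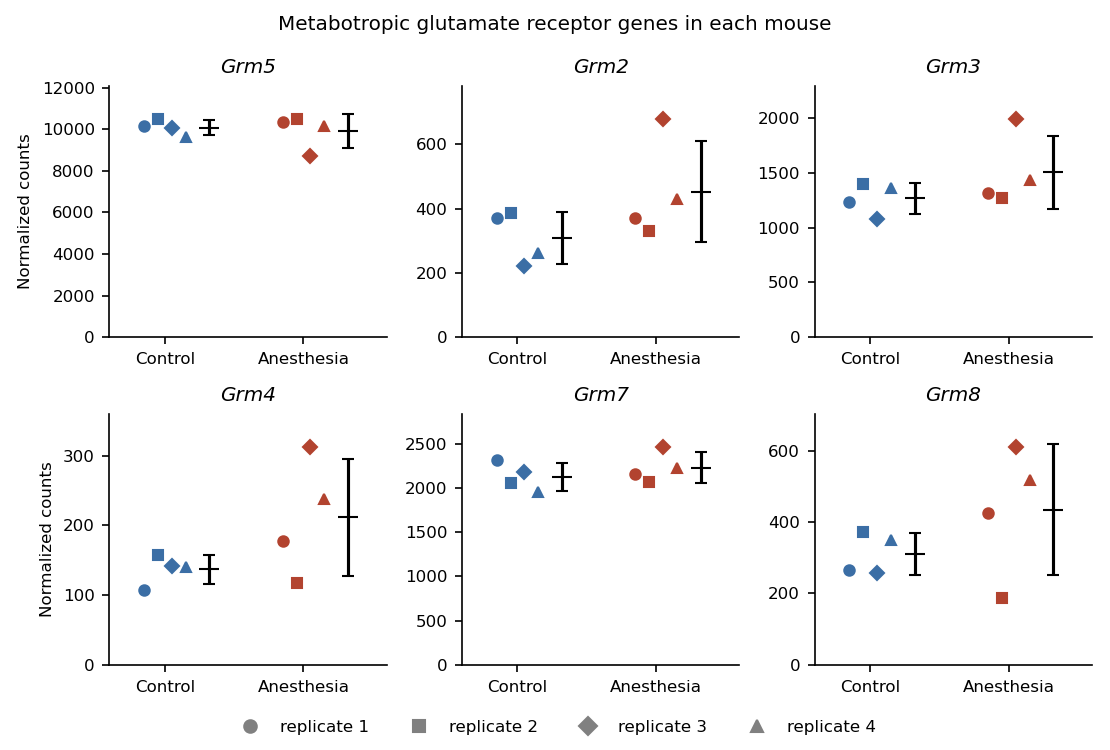
Normalized counts of the 6 receptor genes in each mouse, with each vertical axis starting at 0. Points are mice with a symbol for each replicate number, and black marks give the group mean with its SD (n = 4). Anesthesia replicate 3 (diamond) is the highest of the 8 mice in all panels but Grm5, where it is the lowest.

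Read together, 5 of the 6 members had a higher mean in the Anesthesia group and 1 a lower. Of all 18865 genes tested, 9285 had a higher and 9580 a lower mean log2 level in that group. The median log2 difference was 0.30 for the members, against -0.0036 over all genes. At an adjusted p under 0.05, limma called 0 members and 0 genes in all (0%). This count holds for limma on log2 normalized counts. The study, with DESeq2 and the same adjusted threshold, did report differentially expressed genes in these mice. An unadjusted p under 0.05 was reached by 1 of 6 members, Grm2, against 8.02% of all genes, and 4.75% of all genes had such a p and were higher in the Anesthesia group. The groups did not overlap for 0 members, against 5.04% of all genes. A single member past an unadjusted threshold does not set the receptors apart from that background.

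**Figure D3:**
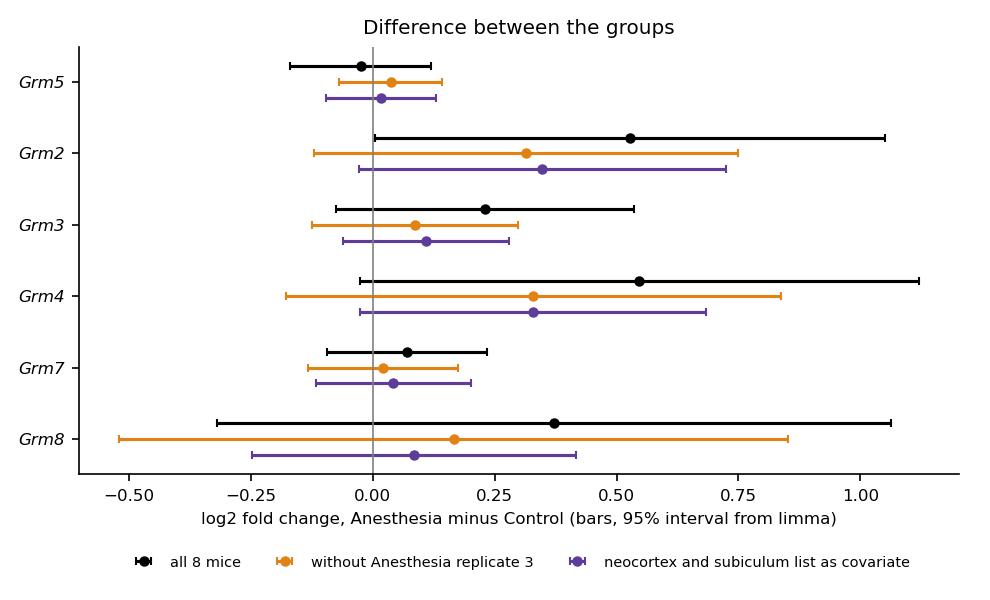
Log2 difference between the groups (Anesthesia minus Control) for each receptor gene, with bars for the 95% interval from limma. Black points are from all 8 mice, orange points leave out Anesthesia replicate 3, and purple points add the neocortex and subiculum list as a covariate. The Grm2 interval excludes 0 with all 8 mice, and includes it in both other fits.

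Anesthesia replicate 3 was the highest of the 8 mice for 5 of the 6 members and the lowest for Grm5. By comparison, it was the highest for 20.3% and the lowest for 21.0% of all genes tested. In this library, 9 of the 12 neocortex and subiculum markers were highest. It also had the lowest level of 4 of the 7 dentate and 4 of the 6 CA3 markers. Of the 9 interneuron markers, 4 were highest and 1 lowest there, and of the 7 CA1 markers, 2 were highest and 3 lowest. With the mean log2 level of the neocortex and subiculum list as a covariate, an alternative chosen after seeing the data, the log2 difference was 0.35 for Grm2, 0.11 for Grm3, 0.33 for Grm4, 0.017 for Grm5, 0.042 for Grm7 and 0.085 for Grm8. The SE of Grm8 was 0.15 in that fit, in place of 0.31. With the choroid plexus list, whose level was lower in the Anesthesia group by its median, as covariate, Grm2 was at 0.32 (unadjusted p 0.175 in limma), Grm3 at 0.16, Grm4 at 0.55, Grm5 at -0.0025, Grm7 at 0.016 and Grm8 at 0.40. The part of these tissue markers in the receptor differences was not tested.

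**Figure D4:**
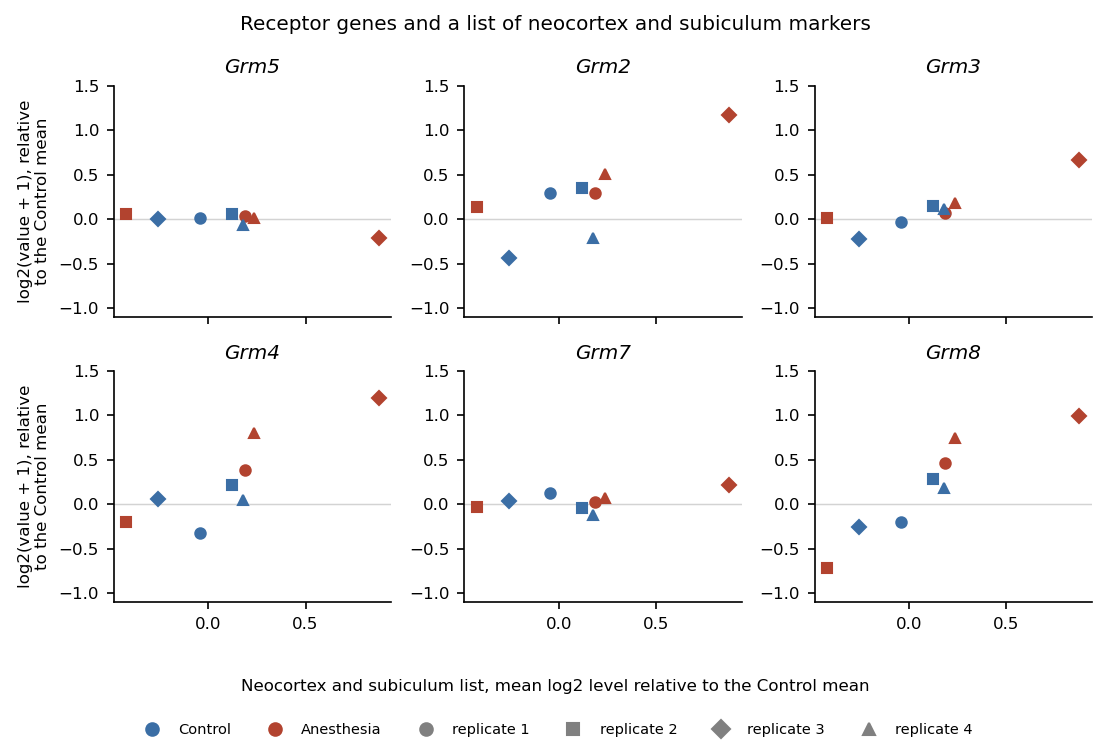
Level of each receptor gene in each mouse (vertical, log2 of the value plus 1, relative to the Control mean) against the mean log2 level of the neocortex and subiculum markers (horizontal, relative to the Control mean). Each point is 1 mouse. Anesthesia replicate 3 (red diamond) lies at 0.88 on the horizontal axis and Anesthesia replicate 2 (red square) at -0.42. Grm8 is highest and lowest in these same mice, but no other member is lowest in Anesthesia replicate 2. The lowest mouse is Control replicate 3 for Grm2 and Grm3, Control replicate 1 for Grm4 and Control replicate 4 for Grm7. For Grm5 it is Anesthesia replicate 3.

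The members also varied with each other from mouse to mouse. These correlations across 8 mice are descriptions, since all points share the 2 groups and the tissue differences above. On the log2 scale, Grm4 and Grm8 of group III had a Pearson r of 0.91 (Spearman rho 0.88), and r was 0.87 over the 7 mice without Anesthesia replicate 3. Grm2 and Grm3 of group II had an r of 0.89 (rho 0.83), which was 0.70 without that mouse. Grm5 was negatively correlated with the other 5 members, for example with an r of -0.77 with Grm3, but that value was 0.033 without Anesthesia replicate 3.

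Among 12248 genes with a mean of at least 100, the closest pattern to Grm2 was that of Mgat5b, a glycosyltransferase (r = 0.98), followed by Raph1 and Rnd1 (both 0.97). Grm3 was nearest to Pde4a, a cAMP phosphodiesterase (0.99), then Ppip5k1 and Inpp4a (both 0.99). Grm4 varied most like B830012L14Rik (0.99), the kainate receptor subunit gene Grik3 (0.98) and Gnao1, which encodes the alpha subunit of Go (0.98). Grm5 was nearest to Med4, a Mediator subunit (0.98), Esd (0.97) and Nrp2, a semaphorin receptor (0.96). Grm7 was nearest to Fzd1, a Wnt receptor (0.97), the GABA transporter gene Slc6a11 (0.96) and Gm32444 (0.94). Grm8 was nearest to Ap3s2 (0.98), Mboat7 (0.98) and the histamine receptor gene Hrh1 (0.97). Without Anesthesia replicate 3, these values of r ranged from 0.82 for Grm5 and Esd to 0.98 for Grm8 and Ap3s2. The genes were picked for the highest r out of 12248, so high values follow from the choice. The remaining mice took part in that choice, so this range is no independent check.

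The rest of the pathway was read from a list of 40 genes, of which 39 were measured and tested. Grm6, the receptor of retinal ON bipolar cells, was not analysed here. Of the 39, 26 had a higher and 13 a lower mean log2 level in the Anesthesia group, against 9285 and 9580 of all 18865 genes. The median difference of the 39 was 0.037, against -0.0036 for all genes. None passed an adjusted p under 0.05 in limma, 3 passed an unadjusted p under 0.05, all higher in the Anesthesia group, and the groups did not overlap for 4. Over all genes, these shares were 8.02% and 5.04%.

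The Gq arm and the postsynaptic partners of group I counted 11 genes, 9 with a higher and 2 with a lower estimate, none of them past an unadjusted p under 0.05. Plcb1, the phospholipase C that Gq activates, was at 6901 ± 540 and 6382 ± 162 in the Anesthesia and Control groups (log2 difference 0.11, SE 0.061, adjusted p 0.666 in limma). The difference was 0.060 without Anesthesia replicate 2, and 0.15 without Anesthesia replicate 1 (unadjusted p 0.0329, adjusted p 0.438 in limma). Ncdn, which encodes neurochondrin, a binding partner of group I receptors, was the most abundant by normalized counts, and its group means were 23895 ± 4524 and 23587 ± 1588 (log2 difference 0.0023). Grasp (Tamalin), a scaffold of group I receptors that is named after its values were seen, had groups that did not overlap, with 375 to 423 normalized counts in the Anesthesia mice and 280.2 to 373 in the Control mice (unadjusted p 0.123 in limma).

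Of the 10 genes of the Gi/o arm, 7 had a higher and 3 a lower estimate, and none passed an unadjusted p under 0.05. Gnai1, an alpha subunit of Gi, was at 2852 ± 226 normalized counts after anesthesia and 3172 ± 205 after saline (log2 difference -0.15, SE 0.071, unadjusted p 0.0539, adjusted p 0.627 in limma). Adcy1, the calcium-stimulated adenylyl cyclase, averaged 32184 ± 10100 and 27455 ± 2343 normalized counts, and Anesthesia replicate 2 alone reached 46641. Its log2 difference was 0.18, and -0.0097 without that mouse.

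Of 6 regulators, 5 had a higher estimate. Grk2, a kinase that desensitizes G protein-coupled receptors, had 1677, 1821, 2216 and 1731 normalized counts in the Anesthesia mice and 1511, 1607, 1519 and 1540 in the Control mice. All 4 Anesthesia mice were above all 4 Control mice. The log2 difference was 0.26 (SE 0.085), with an unadjusted p of 0.0111 and an adjusted p of 0.620 in limma. Rgs4, which speeds the shutdown of Gq and Gi/o signals, was at 3252 ± 1076 and 2897 ± 433 (log2 difference 0.12), and the difference was -0.075 without Anesthesia replicate 3.

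The 3 presynaptic and trans-synaptic partners of group III included Pick1, which binds the tail of mGluR7, at 557 ± 39.3 and 497 ± 40.4 normalized counts (log2 difference 0.17, SE 0.085, adjusted p 0.651 in limma). Elfn2, a postsynaptic adhesion protein that binds group III receptors across the synapse, was at 1529 ± 152 and 1460.0 ± 120 (log2 difference 0.065, adjusted p 0.838 in limma). Its difference was 0.0021 without Anesthesia replicate 4, 0.020 without Control replicate 3, and 0.11 without Anesthesia replicate 3 or Control replicate 4.

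Glutamate supply and uptake held the 2 other genes with an unadjusted p under 0.05, among 3 with a higher and 5 with a lower estimate. Slc1a2, the main astrocytic glutamate transporter, was at 81456 ± 5201 normalized counts after anesthesia and at 72472 ± 2706 after saline (log2 difference 0.17, SE 0.060, unadjusted p 0.0190, adjusted p 0.620 in limma). Its unadjusted p in limma was 0.0534 without Control replicate 2 and 0.0651 with the choroid plexus covariate, under which Grk2 (0.0419) was the 1 pathway gene left under 0.05. Slc17a7 and Slc1a3 are named after their values were seen. Slc17a7, the vesicular glutamate transporter of most hippocampal excitatory neurons, had 9199 to 10883 normalized counts in the Anesthesia mice and 7825 to 9156 in the Control mice (log2 difference 0.17, unadjusted p 0.0309 in limma). Slc1a3, the other astrocytic transporter, lay in the opposite order without overlap, at 10789 to 11299 against 11701 to 12001 (log2 difference -0.096, unadjusted p 0.0505 in limma).

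**Figure D5:**
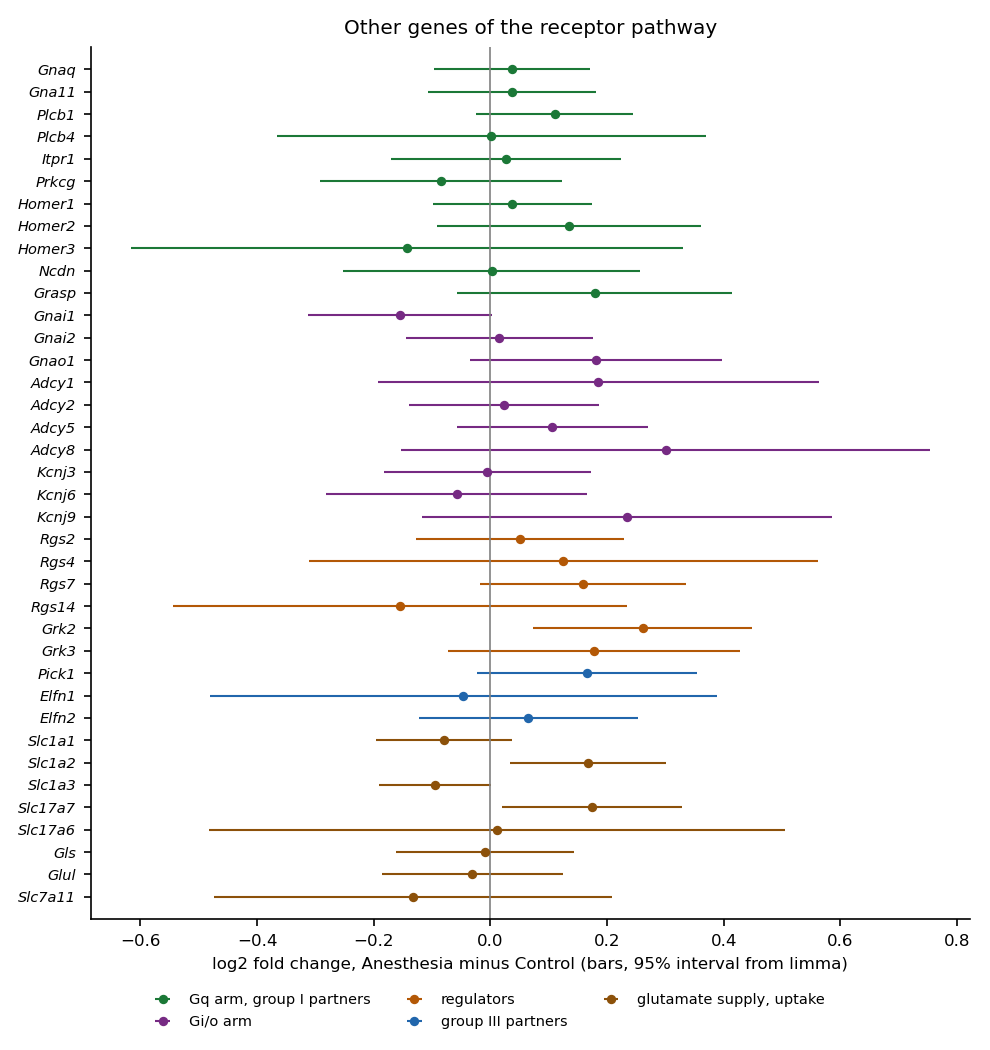
Log2 difference between the groups (Anesthesia minus Control) for other genes of the receptor pathway, grouped by role in color, with bars for the 95% interval from limma. The intervals of Grk2, Slc1a2 and Slc17a7 exclude 0, and no gene shown passes the adjusted threshold.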

How the data were processed

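Hippocampal RNA-sequencing of 8 mice was analysed. The authors quantified transcripts with Salmon (v1.1.0) against GRCm38 with GC bias correction, imported gene-level values with tximport in R (v3.5.3) and divided the counts by size factors in DESeq2 (v1.30.1). The deposited values are therefore a normalized signal, here called normalized counts, and not whole reads. A count model had been planned only for whole or estimated counts, so none was fitted and limma was used. The submitters' labels and the study's methods name different library kits, one of them stranded, so reads of genes that overlap on opposite strands may not be separated.

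Columns were matched to mice by group letter and number, with 0 columns left over. Symbols, positions and transcript lengths came from GENCODE M21 (GRCm38), which matched 20784 of 20802 identifiers, and promoters from RefSeq (GRCm38.p6). Within 0.1 of a step, 51.6 to 73.4% of the low values of a library were whole multiples of that step. Reads were therefore not recovered. Log2 ratios between 2 libraries had an SD of 0.45 to 0.672, so no sample repeated another. The labels do not say whether each sample is a separate animal, although the study treats them as such.

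Genes with a mean of at least 10 (18865) were fitted with limma (v3.58.1, R v4.3.3) to log2(value + 1), with a trend of variance on mean level and no covariate, and p-values were adjusted over all of them (Benjamini-Hochberg, threshold 0.05). All 6 members passed this filter. Fold changes on this scale understate those of low genes. The fit was tested on simulated data. Python (v3.11.15) and pandas (v2.3.3) were used for summaries. Named genes are the members, the gene with the smallest p and that with the highest mean in each role of the pathway list, and the 3 genes with the highest r with each member. Some genes that this rule covers are not reported here. The members and lists were chosen with earlier results of these data known. Alternatives were other scalings, filters, a pseudocount of 0.1, limma voom, robust spread, a replicate block, a correction for GC content and transcript length, a choroid plexus covariate, a longer transcript as divisor, each mouse left out in turn and, added after seeing the data, a neocortex and subiculum covariate.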

Additional observations from a re-analysis of the deposited data

How the results depend on the processing

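No member had an adjusted p under 0.05 in limma in any of the 21 alternative fits, and the lowest adjusted p was 0.457, for Grm2 without Anesthesia replicate 1. Over all genes this count was 0, and 0 to 2 with 1 mouse left out, where the 2 came without Control replicate 1. With 4 mice a group and the intervals given, differences of the size seen for Grm4 and Grm8 could not be told from 0. The count of members with an unadjusted p under 0.05 was 1, and 0 with scaling to library total, a mean of at least 100, limma voom, robust spread, the loess correction for GC content and length, the choroid plexus covariate or the neocortex and subiculum covariate. It was 0 to 3 with 1 mouse left out, with 3 without Anesthesia replicate 2 and 0 without Anesthesia replicate 3 or 4 or Control replicate 3 or 4. The replicate numbers did not pair the mice (correlations of deviations from -0.242 to 0.019), and with the replicate block this count was 0, also with the loess correction for GC content and length. Over all genes 1513 had such a p, 1084 with the replicate block, 934 with both that block and the loess correction for GC content and length, and 872 with the choroid plexus covariate. For the pathway list the count was 3, and 5 with scaling to library total, limma voom or the neocortex and subiculum covariate. It was 4 with a pseudocount of 0.1, a mean of at least 100 or robust spread. With the replicate block it was 2, with or without the loess correction for GC content and length. The choroid plexus covariate left 1 (Grk2). With 1 mouse left out, the pathway count was 3 to 10, with 10 without Anesthesia replicate 2 and 6 without Anesthesia replicate 1.

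Directions turned for Grm5 (log2 difference -0.053 to 0.036 with 1 mouse left out, 0.017 with the neocortex and subiculum covariate), Rgs4 (-0.075 to 0.27, and -0.060), Adcy1 (-0.0097 to 0.32) and Elfn2 (-0.10 with the loess correction for GC content and length, with or without the replicate block). Ncdn was at -0.0055 with scaling to library total, -0.0051 with limma voom, -0.11 with the loess correction for GC content and length with or without the replicate block, -0.022 with the choroid plexus covariate, and -0.11 to 0.10 with 1 mouse left out. Per kb of the longest transcript, Grm2 was at 80.9, Grm5 at 1243 and Grm7 at 518. The causes were not tested.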
